A study of Mus musculus with 2 samples.

Results

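The loci of Smad3, Smad6 and Smad7 were examined in a list of 61400 regions in which histone H4 tags were more abundant in chromatin of SAHA-treated osteoblasts than in the solvent control. The members were the listed regions that overlapped, by at least 1 bp, a window around each gene in mouse build mm9: chr9:63450000-63650000 for Smad3 (200 kb), chr9:63750000-63920000 for Smad6 (170 kb) and chr18:75480000-75600000 for Smad7 (120 kb). In all, 21 regions met this rule, 9 at Smad3, 5 at Smad6 and 7 at Smad7. Smad3 (NCBI gene 17127) and Smad6 (17130) are neighbours among the protein-coding genes of chromosome 9, in the order Aagab, Smad3, Smad6, Lctl, and Smad7 (17131) lies between Dym and Ctif on chromosome 18, in the RefSeq annotation of GRCm38.p6. No annotation of mm9 was used here, so the regions are placed within each window and not within exons, introns or promoters, and a window can also hold parts of the neighbouring genes.

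The study profiled MC3T3 sc4, a subclone of a mouse calvarial cell line that matures into osteoblasts in culture, by chromatin immunoprecipitation and sequencing (ChIP-seq). Cells in both groups were grown in osteogenic medium, with ascorbic acid and beta glycerol phosphate, and were exposed on day 4 for 2 hours to 20 µM SAHA (suberoylanilide hydroxamic acid, an inhibitor of histone deacetylases) or to its solvent DMSO. The exposure went on through a collagenase digest of 40 min. The antibody label reads histone H4, and the series describes the mark as H4 acetylation. Each condition had 1 library, with 123676661 SAHA tags and 76214516 DMSO tags kept by the authors. No difference below therefore has a replicate check, and the intervals given cover counting error only. The duplicate rate also differed between the libraries, with 97.4% of SAHA tags and 65.6% of DMSO tags kept, and its part in these values cannot be told apart from the treatment.

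Smad proteins carry signals of the TGF-beta family from receptors at the cell surface to the nucleus. Smad3 is a receptor-regulated Smad that is phosphorylated by TGF-beta and activin receptors, joins Smad4 and binds DNA. Smad6 and Smad7 are inhibitory Smads that are induced by the same pathways and restrain them, Smad6 mainly in BMP signalling and Smad7 in both TGF-beta and BMP signalling. In osteoblasts BMP signals favour maturation, and TGF-beta acts differently at different stages. Acetylation of the H4 tail is a mark of open, active chromatin, and histone deacetylases remove it.

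RefSeq promoter windows of 300 bases (250 before and 50 after an annotated start, build GRCm38.p6) were matched for 2 of the 3 genes, Smad3 and Smad6. Stretches of 30 bases are shown because they hold the element bound by the pathway's own factors, found in 1 promoter, and the GC box, found in both. They were not placed among the mm9 regions. Each reads 5′ to 3′ on the minus strand, the strand of both genes, and capitals mark each whole copy of the motif.
Smad6, chr9:64022045-64022074: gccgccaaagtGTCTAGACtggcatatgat
Smad3, chr9:63758148-63758177: agacttgggagcGGGCGGgagaggagcggg
Smad6, chr9:64022199-64022228: gcgggggtgctgGGGCGGgcgagGGGCGGg
The first motif, GTCTAGAC, is the palindromic Smad-binding element to which Smad3 and Smad4 bind. It occurred 1 time in the Smad6 window, across the annotated start with 4 of its bases before it and 4 after, and 0 times in the Smad3 window. Of the 32851 promoter windows in the table, 70 held it (0.213%). The second, GGGCGG, is the GC box known from Sp1 binding. Searched on both strands, with overlaps allowed, it occurred 2 times at Smad3 and 4 times at Smad6, and 35.7% of all promoter windows held it. The 2 promoters were alike in GC content, 67.7% at Smad3 and 66.3% at Smad6. These matches are descriptions of the letters and show no binding.

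The loci differed in how much of each window was covered by listed regions, and less in how dense the tags were inside them. Regions covered 16.7% of the Smad3 window, 5.95% of the Smad6 window and 20.4% of the Smad7 window. Per 100 kb there were 4.50, 2.94 and 5.83 regions, respectively. Smad3 and Smad7 regions were long, with medians of 3667 bp (range 663 to 5867) and 3142 bp (range 621 to 13277). At Smad6 the median was 1312 bp (range 824 to 5773), close to the 1337 bp of the whole list. With regions joined over gaps of up to 1 kb this order did not hold, and the medians were 3376 bp at Smad3, 4226 bp at Smad6 and 3397.5 bp at Smad7. The joined Smad6 lengths were 14160, 7085, 1312 and 1367 bp. The longest of them, chr9:63736228-63750387, lies almost wholly before the window, so the Smad6 median depends on the window edge. The regions of Smad3, Smad6 and Smad7 held 7574, 2433 and 7096 SAHA tags in total.

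**Figure D1:**
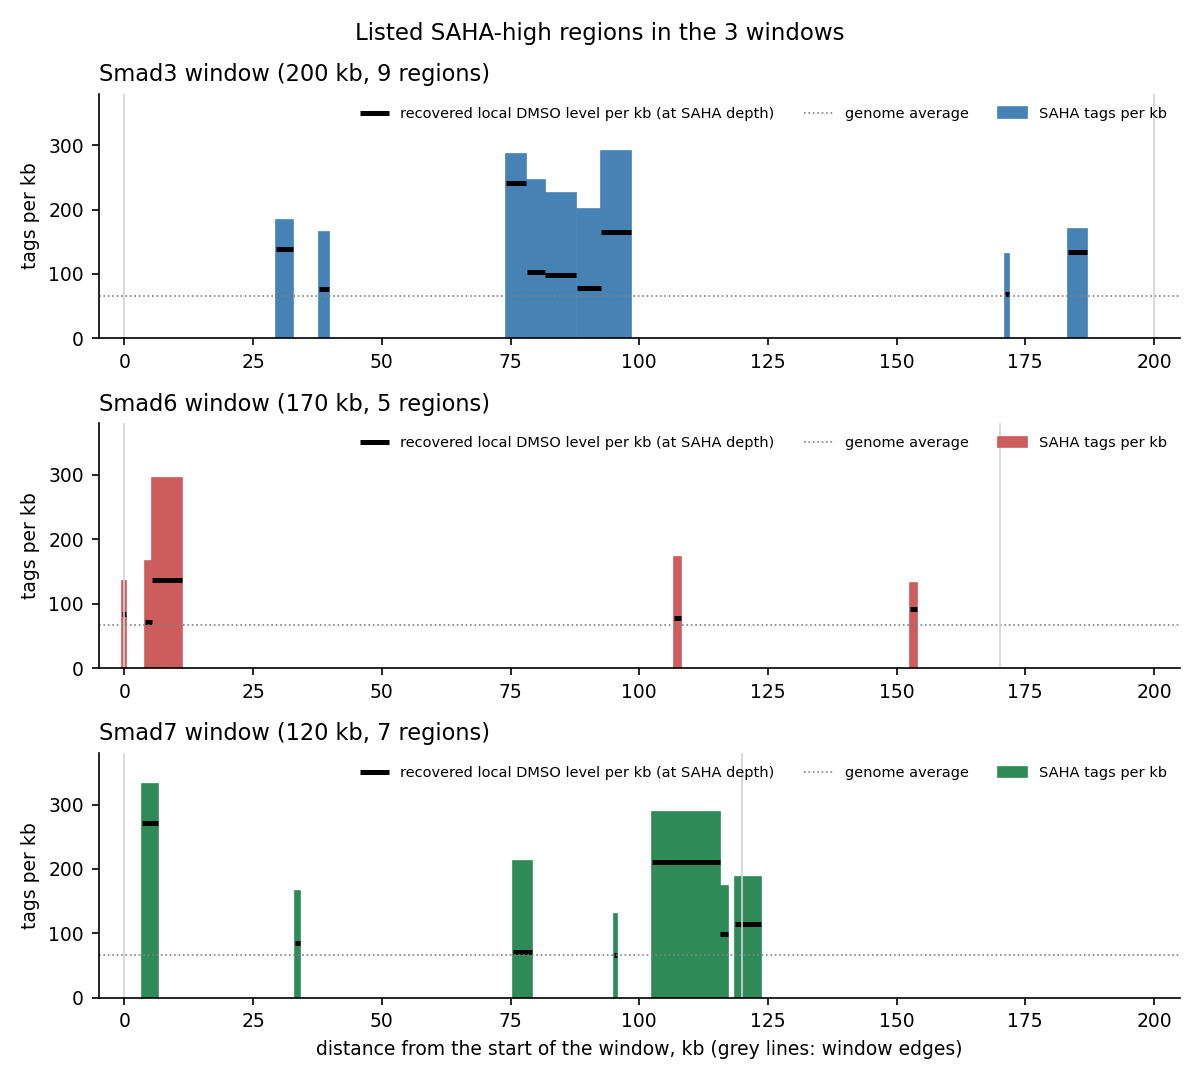
SAHA tags per kb of each listed region (coloured bars, drawn over the length of the region) and the recovered local DMSO level at SAHA depth (black lines) against the distance in kb from the start of each window, with the genome average of 66.1 tags per kb dotted. The Smad3 window holds an almost unbroken block of 5 regions, the Smad6 window has its tallest region near its start, and the Smad7 window has its widest region near its end.

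At Smad3, tags were concentrated in 1 block. Between chr9:63524152 and 63548361, 5 regions followed each other with gaps of 11, 91, 346 and 3 bp, and they held 5930 of the 7574 SAHA tags of the window. The block spanned 24.2 kb. When regions across the list were joined over gaps of up to 1 kb, 273 of the 39128 resulting domains were at least as long. SAHA tags ran at 200 to 290 per kb along the block. The DMSO level is the local DMSO background behind the listed score, scaled to SAHA depth. Its values along the block came from different backgrounds, as upper limits or approximate values, so its course along the block cannot be read from them.

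The first region of the block, chr9:63524152-63528101, had 286.8 SAHA tags per kb against a DMSO level of 241.8 per kb, a ratio of at least 1.19 (95% Poisson interval of the SAHA tags 1.12 to 1.26). Its summit fold, the authors' value for the highest SAHA point over the local background, was 2.41, and only 0.508% of the list had a lower one. It stood about as high in SAHA as the last region of the block, and its recovered DMSO level, an upper limit, was the highest of the window. The next, chr9:63528113-63531678, had 245.1 SAHA tags per kb against 103.2, a ratio of at least 2.37 (interval 2.22 to 2.54) and a fold of 5.36. Both ratios are lower limits set by different backgrounds, so their difference cannot be read from them. Poisson intervals of ratios, here and below, cover the SAHA tags alone and take the DMSO level as fixed. For a ratio given as a lower limit, the upper end of such an interval is no upper limit of the ratio.

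The next 2 regions had the lowest recovered DMSO levels of the block. At chr9:63531770-63537636 there were 225.7 SAHA tags per kb over a level of about 99.0, a ratio of about 2.28 and a fold of 5.27. At chr9:63537983-63542555 there were 200.3 SAHA tags per kb over about 77.6, a ratio of about 2.58 (Poisson interval 2.42 to 2.75) and the highest fold of the Smad3 window, 5.75. The levels of these 2 regions matched no background of the caller and are approximate. The block ended with chr9:63542559-63548361, which held the most tags of the window, 1683. There 290.0 SAHA tags per kb stood against 165.2, a ratio of at least 1.76 and a fold of 3.56.

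The other 4 Smad3 regions held fewer SAHA tags, 87 to 623 each. Near the start of the window, chr9:63479391-63482766 held 619 SAHA tags against 287 DMSO tags of its own, or 465.7 after scaling, and the ratio was 1.33 (95% exact binomial interval over both counts 1.15 to 1.53). The neighbouring chr9:63487817-63489720 held 315 SAHA tags against 90 DMSO tags, or 146.0 scaled, a ratio of 2.16 (exact binomial interval 1.70 to 2.76). In both regions the libraries were counted over the same bases, and SAHA exceeded DMSO beyond counting error, as selection into the list requires. After the block came 72.8 kb without a listed region, then chr9:63621116-63621778, the shortest of the window at 663 bp, with 87 SAHA tags, a fold of 3.72 and a ratio of at least 1.91. The last region, chr9:63633337-63637003, had 169.9 SAHA tags per kb over 134.5, a ratio of at least 1.26 and a fold of 2.85. The nearest listed regions beyond the edges were 29.7 kb before the window, with a fold of 5.89, and 6.62 kb after it, with a fold of 3.93.

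At Smad6, 1 region held most of the signal. The region chr9:63755399-63761171 carried 1703 SAHA tags, or 70.0% of all SAHA tags in listed regions of the window. It had 295.0 SAHA tags per kb over a DMSO level of 136.3, a ratio of at least 2.16 (Poisson interval 2.06 to 2.27), and a fold of 5.98. Of the 7423 listed regions with a DMSO level of 2 to 3 times the genome average, 98.5% had a lower ratio. Of all 61106 regions with a recovered level, 83.1% did. The ratios compared mix limits, exact and approximate values. Just before the large region, across a gap of 43 bp, chr9:63754087-63755355 had 166.3 SAHA tags per kb over 71.4, a ratio of at least 2.33 and a fold of 4.77. The first region, chr9:63749564-63750387, straddled the window edge, with 111 SAHA tags against 43 DMSO tags (69.8 scaled), a ratio of 1.59 (exact binomial interval 1.11 to 2.32).

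The remainder of the Smad6 window was sparse. No region was listed for 95.7 kb, 56.3% of the window, and 94.7% of the 61379 gaps between neighbouring regions of the list were shorter. After this gap chr9:63856837-63858148 had 173.0 SAHA tags per kb over a level of about 78.4, a ratio of about 2.21 and a fold of 4.37. The last, chr9:63902530-63903896, had 132.4 SAHA tags per kb over 92.0, a ratio of at least 1.44 and a fold of 2.77. A listed region with a fold of 5.34 ended 1.33 kb before the window, and the next after it began 18.5 kb beyond its end. The position of the window edge thus bears on the Smad6 values: with 20 kb added at each end, 9 regions covered 11.3% of the window.

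At Smad7, the region of highest fold and the region of most tags were different. The fold was highest at chr18:75555480-75559132, at 8.54, and 464 of the 61400 regions had at least this fold. Its 777 SAHA tags gave 212.7 per kb over a recovered DMSO level of 71.4, which is 1.08 times the genome average. The ratio of at least 2.98 (Poisson interval of the SAHA tags 2.77 to 3.20) was the highest of all 21 members. The most tags, 3837, were in chr18:75582421-75595697, a broad region of 13.3 kb with 289.0 SAHA tags per kb. There the DMSO level was high as well, about 210.4 per kb, so the ratio was about 1.37 (Poisson interval 1.33 to 1.42) although the fold at its summit was 6.00. The former thus had the higher ratio to its recovered level, a lower limit set beside an approximate value. Neither level was matched to DMSO tags counted over the whole region, so the size of the difference cannot be read from these levels.

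The broad region was followed within 60 bp by chr18:75595758-75597175, with 173.5 SAHA tags per kb over 98.5, a ratio of at least 1.76 and a fold of 4.03. After a further 1440 bp came chr18:75598616-75603625, which reached beyond the window, with 187.6 SAHA tags per kb over about 114.8, a ratio of about 1.64 and a fold of 3.82. The first region of the window, chr18:75483354-75486495, had the highest tag density of the 21, 331.6 SAHA tags per kb. Its recovered DMSO level was also the highest, an upper limit of 271.0 per kb or 4.10 times the genome average. Its ratio was at least 1.22 and its fold 3.14. The region chr18:75513059-75514102 held 173 SAHA tags against 55 DMSO tags (89.3 scaled), a ratio of 1.94 (exact binomial interval 1.42 to 2.68). The short chr18:75575109-75575729 held 81 SAHA tags over a level equal to the genome average, with a ratio of at least 1.97. The nearest regions beyond the edges lay 4.78 kb before the window (fold 4.18) and 29.2 kb after it (fold 4.32).

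**Figure D2:**
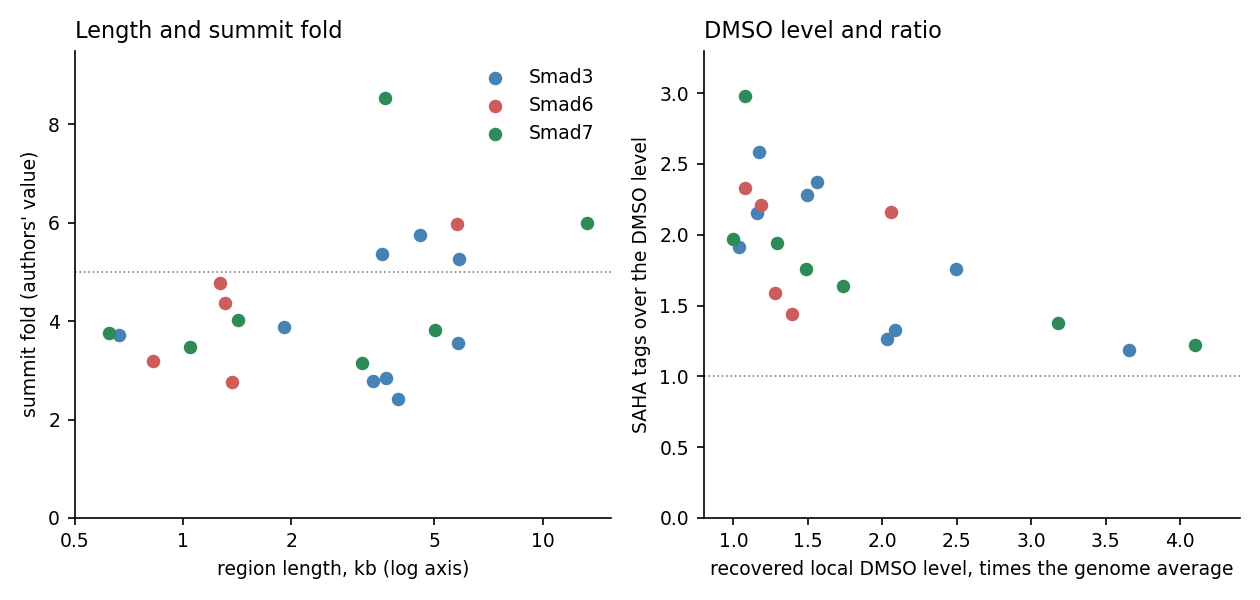
Summit fold against region length in kb on a log axis (left, dotted line at a fold of 5) and the ratio of SAHA tags to the recovered DMSO level against that level in multiples of the genome average (right, dotted line at 1), 1 point per region and coloured by locus. The Smad7 region with a fold of 8.54 stands apart on the left, and the Smad6 region at 2.06 times the average has a ratio of 2.16 on the right.

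The ratios of the 21 regions overlapped between ranges of the DMSO level. Of the 7 regions with a level above 2 times the genome average, 6 had ratios of 1.19 to 1.76, and the large Smad6 region had 2.16. The 12 regions with a level of 1 to 1.5 times the average had ratios of 1.44 to 2.98 (median 2.06), against a median of 1.89 in the 32056 listed regions of that range. The lowest of the 12 were the last and the first Smad6 region, at 1.44 and 1.59. The 2 regions at 1.5 to 2 times the average were the second of the Smad3 block, at 2.37, and the last of the Smad7 window, at 1.64. The level enters the ratio itself, so the 2 quantities are not independent.

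Calls past fixed limits made up larger shares of the 21 regions than of the list, with no test of the difference, and the members were longer (median 3376 bp). A fold of at least 5 was found in 6 of 21 members (28.6%), against 19.0% of the list. The 6 were 3 regions of the Smad3 block, the large Smad6 region and 2 regions at Smad7. An FDR of 100%, which in this list marks the regions with scores of at least 557.07, was found in 7 of 21 (33.3%), against 11.6% of the list. By the definition known for the caller, and not given in the file, at least as many regions were called at such scores with SAHA and DMSO exchanged. The 7 were the last 4 regions of the Smad3 block, the large Smad6 region, and the Smad7 regions of highest fold and of most tags. No member had a low FDR, and the lowest of the 21 was 58.4%. A ratio of at least 2 was found in 8 of 21 (38.1%), against 28.0% of the list, 4 at Smad3, 3 at Smad6 and 1 at Smad7. Of the members, 12 were longer than 3 kb, and all 7 with an FDR of 100% were among them. That is 58.3% of the long members, against 46.4% of the 11518 listed regions longer than 3 kb. A fold of at least 5 was found in 6 of the 12 long members (50%), against 33.4% of the long listed regions. Median folds were near the 3.93 of the list at Smad3 (3.72) and Smad7 (3.82) and above it at Smad6 (4.37).

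Between loci, tag density differed little when pooled over regions, and more without the region of most tags. Pooled over its regions, Smad7 had 251.9 SAHA tags per kb (95% Poisson interval 246.1 to 257.9), Smad6 230.7 (221.6 to 240.1) and Smad3 227.0 (221.9 to 232.1). The pooled density of the whole list was 213.0. Smad7 exceeded Smad6 by a factor of 1.09 (exact binomial interval 1.04 to 1.14), and the Smad3 to Smad6 factor was 0.984 (interval 0.940 to 1.03), which includes 1. Both intervals cover the counting error of the summed tags and leave out the spread between regions, so they are no test between loci. The Smad6 density rested on 1 region. Without the region of most tags in each window, Smad6 had 153.0 SAHA tags per kb (interval 142.1 to 164.5), below Smad3 with 213.7 and Smad7 with 218.9. The pooled ratio of SAHA tags to the DMSO level ran in another order, about 2.07 at Smad6, 1.73 at Smad3 and 1.49 at Smad7. The summed DMSO levels were about 1.69, 1.98 and 2.55 times the genome average. These sums mix upper limits, exact levels and approximate levels, so this order of the loci is not settled. At Smad7 the largest part was the approximate level of the broad region, 2793.5 scaled tags.

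The windows were then set beside equal-sized windows laid end to end along the same chromosome. By number of regions none of the loci stood at the extreme. The Smad3 window, with 9, exceeded 73.7% of 585 windows of 200 kb (median 2, maximum 53). The Smad6 window, with 5, exceeded 64.4% of 689 windows of 170 kb (median 1, maximum 45). The Smad7 window, with 7, exceeded 78.1% of 671 windows of 120 kb on chromosome 18 (median 0, maximum 38). Many windows held no region (42.2%, 44.8% and 50.8%). Among windows with at least 1 region, the shares with fewer were 54.4% at Smad3, 35.5% at Smad6 and 55.5% at Smad7.

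**Figure D3:**
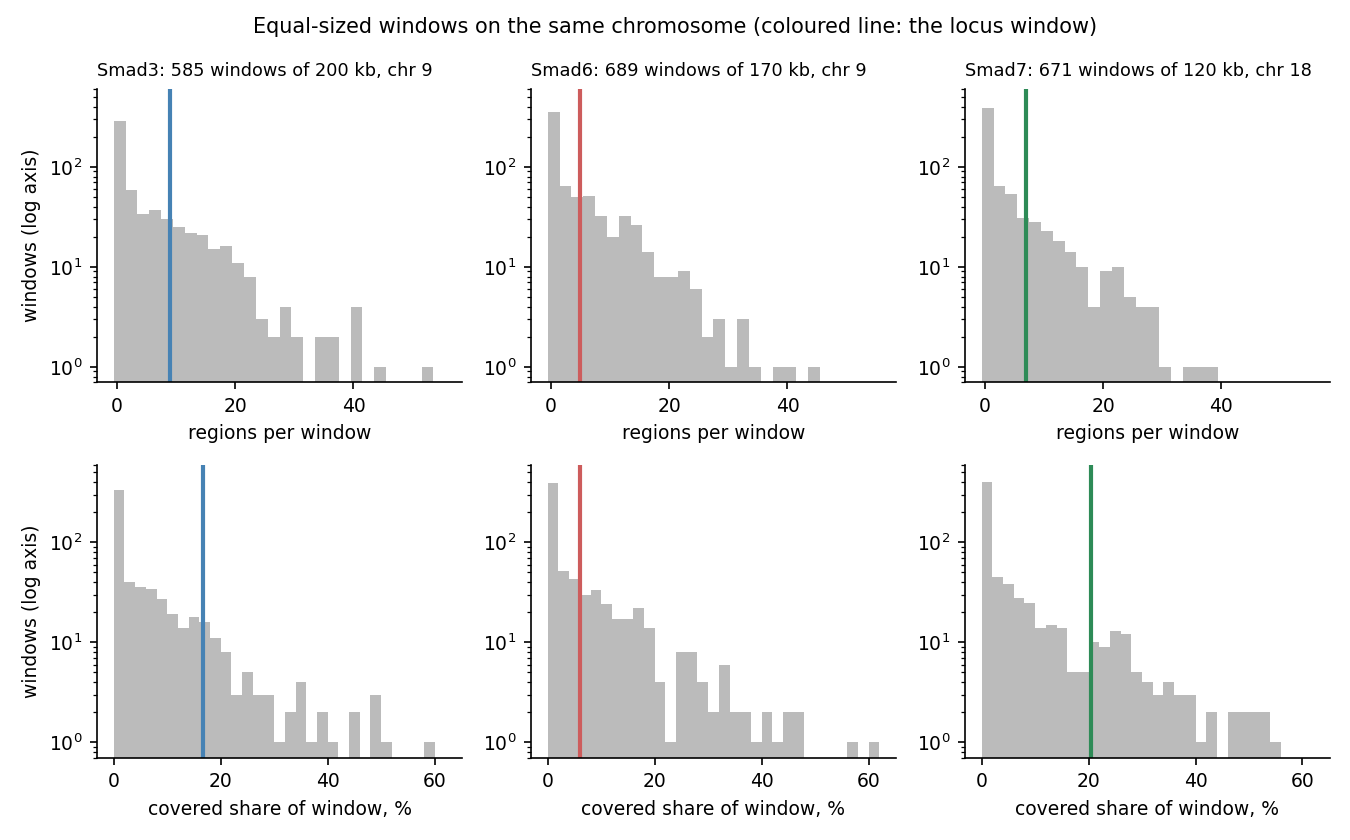
Number of equal-sized windows (log axis) by regions per window (top) and by covered share in percent (bottom) for the chromosome of each locus, with the locus window as a coloured line. The lines for Smad3 and Smad7 lie further to the right by covered share, 16.7% and 20.4%, than by number of regions, 9 and 7.

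By covered share and median length, Smad3 and Smad7 stood higher than by number of regions. The Smad3 window was more covered than 89.7% of its 585 windows, and than 82.2% of the 338 windows with a region. Its median region length exceeded that of 97.0% of these 338. By highest fold the Smad3 window exceeded 73.0% of the 585 and 53.3% of the 338, no more than by number of regions. The Smad7 window was more covered than 89.0% of its 671 windows and held more SAHA tags than 95.1%. Its highest fold exceeded that of 97.6%, and among the 330 windows with a region its pooled tag density exceeded 97.9%. Its pooled ratio, by contrast, exceeded only 9.42% of 329 windows. The Smad6 window was more covered than 70.0% of its 689 windows, and its highest fold exceeded that of 78.5%. Among the 380 windows with a region, it was more covered than only 45.5%, and its highest fold exceeded 61.1%. Its pooled ratio exceeded 88.2% of these 380 and its pooled tag density 89.5%. For Smad3 the pooled ratio exceeded 46.2% of the 338 windows with a region and the pooled tag density 89.3%. The pooled ratios mix limits and approximate values, so their places among windows are approximate.

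**Figure D4:**
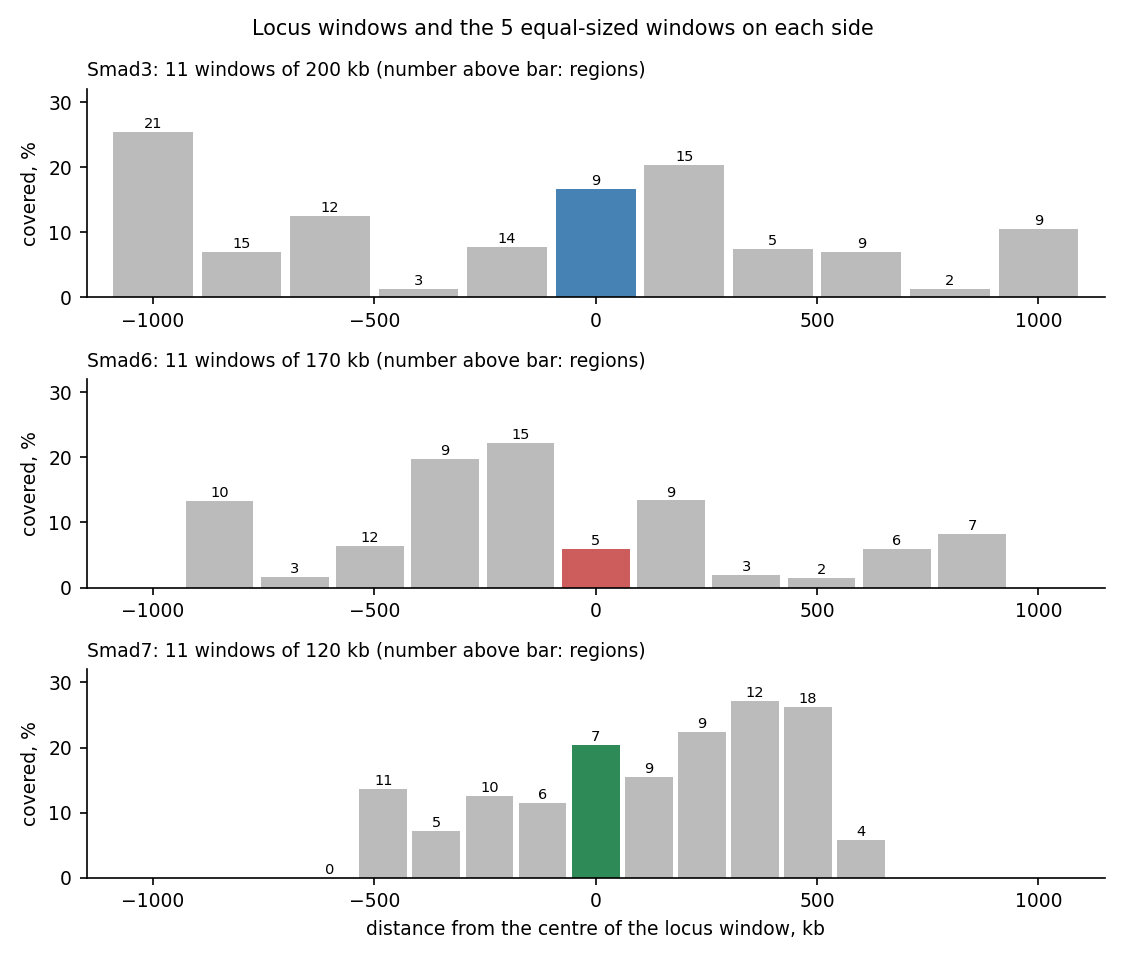
Covered share in percent of each locus window (coloured) and of the 5 equal-sized windows on each side (grey) by distance in kb from the centre of the locus window, with the number of regions above each bar. Smad3 covers 16.7% and Smad7 20.4% of their windows among neighbours with up to 25.4% and 27.1%, and Smad6 covers 5.95%.

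The surroundings of all 3 loci were themselves rich in regions. Of the 10 nearest windows of the same size, 5 had more regions than the Smad3 window, 7 more than the Smad6 window and 6 more than the Smad7 window. The median numbers in these neighbours were 10.5, 8 and 9, against 2, 1 and 0 over the whole chromosomes. The neighbours of Smad3 take in the Smad6 window, and those of Smad6 take in the Smad3 window. The counts for these loci are thus not separate observations. By covered share, 2 of the 10 neighbours exceeded Smad3, 6 exceeded Smad6 and 3 exceeded Smad7. In highest fold, 0 of the 10 neighbours exceeded the Smad7 window, where the highest value nearby was 8.32, and 5 and 4 exceeded the Smad3 and Smad6 windows.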

How the data were processed

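One ChIP-seq library each of DMSO- and SAHA-treated MC3T3 sc4 cells was compared. The submitters' processing notes name build mm9, BWA (0.5.9), CASAVA (1.7.0), SAMtools and the peak caller MACS (1.4.0rc2). Per the file headers, MACS took SAHA as ChIP and DMSO as control at a p cutoff of 1e-05 and scaled the smaller library up. It kept at most 3 duplicates per position in the SAHA library. The opposite direction, DMSO over SAHA, was not analysed here. The deposited columns are whole counts of SAHA tags, a score (10 times −log10 of a Poisson p), the summit fold as a ratio to the local background and the FDR as a percent.

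The local DMSO level was recovered as the Poisson mean at which the listed tags give the listed score (within 0.005), at SAHA depth (1 DMSO tag counts 1.62). A simulation with the same Poisson model and only levels from the caller's backgrounds checked the numerical inversion. It cannot show whether the level is the DMSO signal of a region, and it held no unmatched levels. Where it matched a background of the caller (average over the genome, or DMSO tags of the region, of 1 kb or of 10 kb; 16 of 21 members), it is an upper limit and the ratio a lower limit ("at least"), or exact for the region's own tags. Otherwise both are approximate ("about").

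Members, motifs and comparisons were chosen with earlier results of these data known. The rule for named regions (per window, the 3 of highest fold, most tags and greatest length, the 2 of highest ratio, the first, the last and the nearest beyond each edge) gave 18 of the 21 members, and the other 3 were added for completeness. Equal-sized windows were laid end to end from the locus window. Without replicates no test was run. Other TGF-beta pathway genes were planned but not analysed here, as they need gene positions in mm9. Python 3.11.15, numpy 2.4.6, scipy 1.17.1, pandas 2.3.3 and matplotlib 3.10.9 were used.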

Additional observations from a re-analysis of the deposited data

How the results depend on the processing

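Of 75 alternative values, 38 stayed within 1.5 times the main count, or within the interval or range of the main value, and 37 did not; none changed which library was higher, since the list holds 1 direction. The cause of the shifts was not tested except where fewer regions follow from the setting. The number of regions at Smad3, Smad6 and Smad7 (9, 5 and 7) was 3, 1 and 2 at a fold of at least 5, 5 at Smad3 when joined over 1 kb, 3 at Smad6 with scores from 100 upwards and 9 at Smad6 with 20 kb added at each end. The covered share, in the same order, was 12.5%, 4.91% and 17.3% with scores from 100 upwards, 16.3%, 11.3% and 18.3% with the wider window, and 13.8%, 2.55% and 9.39% without the region of most SAHA tags. With regions not clipped to the window it was 6.20% at Smad6 and 23.5% at Smad7. SAHA tags per kb were 200.3, 166.3 and 187.6 as medians over regions, 213.7, 153.0 and 218.9 without the region of most tags, and 256.3 (Smad6) and 244.8 (Smad7) with scores from 100 upwards. The share of equal-sized windows with fewer regions was 54.4%, 35.5% and 55.5% without empty windows, and 68.9% at Smad6 and 81.9% at Smad7 over all autosomes. With empty windows included, it was 89.7%, 70.0% and 89.0% when compared by covered share, and by highest fold 78.5% at Smad6 and 97.6% at Smad7. Without depth scaling, which raises every ratio by 1.62, the median ratio was 3.10 at Smad3, 3.51 at Smad6 and 2.86 at Smad7. Joining over 1 kb moved the median length at Smad6 from 1312 to 4226 bp, with a domain of 14160 bp counted that lies almost wholly before the window. Both this median and the unscaled Smad7 ratio stayed inside the wide range of the regions' own values and are counted among the 38. The wider windows, the comparisons by covered share and fold, and the removal of the top region were chosen after seeing the data. No paired analysis was possible because each condition has 1 library and the labels carry no replicate number. With 1 library per condition no library could be left out either, and counts limit the precision. Of the 4 regions with DMSO tags of their own, the first Smad6 region had the fewest tags (111 SAHA and 43 DMSO tags, ratio interval 1.11 to 2.32).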

Other observations

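The stretch of 100 kb between the Smad3 and Smad6 windows belongs to neither locus by the rule, and it was denser in regions than both. It held 12 whole regions, or 12.0 per 100 kb, which covered 32.9% of it and carried 7774 SAHA tags, about as many as the whole Smad3 window. The 2 regions with most tags were chr9:63682769-63693762, of 11.0 kb with 2577 SAHA tags and a fold of 7.21, and chr9:63741380-63746830, with 1836 SAHA tags, 336.8 per kb, and a fold of 5.85. The latter had a score of 2724.04, above the 1752.22 of the highest-scoring member, and a ratio of at least 2.59 to its DMSO level. Joined over gaps of up to 1 kb, it formed a domain of 14.2 kb and 4 regions, of which the last is the first region of the Smad6 window. The median length in the stretch was 1122 bp, and its pooled ratio of about 1.75 was near the value of about 1.73 at Smad3. The stretch was looked at after the values of the windows were seen, and no gene positions in mm9 were at hand to name what lies in it.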
